A study of Mus musculus with 31 samples.

Results

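The circadian clock genes described here are the 10 genes Arntl, Npas2, Clock, Nfil3, Cry1, Per1, Per2, Per3, Dbp and Nr1d1, taken as every array probe whose gene name in the array files is one of these symbols. They are 10 of the 19845 genes tested and are read by 22 of the 56605 probes other than controls. The 10 genes were selected on the measured levels of these same arrays by treatment and day, so their differences between treatments and days are given as a description with standard errors and no test. Sex was not part of that choice, and the sexes were therefore compared with a test.

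The tissue was distal colon of BALB/c mice aged 4 to 6 weeks at the start, and each of the 31 arrays was 1 mouse. Every mouse, controls included, had received azoxymethane (AOM), an alkylating colon carcinogen given by injection, and dextran sulfate sodium (DSS) in the drinking water, an agent that injures the colon lining, which together induce colorectal cancer (CRC). The CRC groups were gavaged with water, and the CRC + E171 groups with the food additive E171, food-grade titanium dioxide, at 5 mg per kg body weight per day. Tissue was taken after 2, 7, 14 and 21 days from 4 mice per group, of which 2 were labelled male and 2 female, except for the CRC group at 21 days with 3 mice (1 male, 2 females). Per the paper, DSS was given on the first 5 days only. The mice of 2 days were therefore sampled during it and the others after it. No untreated mice were among these arrays, and the hour of the day at which tissue was taken is not given in the sources used here.

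The mammalian clock is a loop of transcription and translation that runs in most cells and is set by light, feeding and glucocorticoids. CLOCK or its relative NPAS2 pairs with BMAL1, the product of Arntl, and switches on genes with E-boxes in their promoters, among them the Per and Cry genes, Nr1d1 and Dbp. PER and CRY proteins return to block that pair. NR1D1 (REV-ERB alpha) represses Arntl, Npas2, Clock, Nfil3 and Cry1 through ROR elements, where ROR receptors activate, and DBP and NFIL3 act in opposition on D-boxes, DBP as an activator and NFIL3 as a repressor. In tissues that keep time, Arntl and Npas2 therefore peak at another phase than Dbp, Nr1d1 and Per3. In the gut the clock is known for daily rhythms of absorption, barrier function and cell division.

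The promoters were searched for these motifs, and the stretches of the 5 members that held one are printed to show what an E-box, a D-box and a ROR element look like in these genes. No match was found in the windows of the other 4 members searched. All are read 5′ to 3′ along the gene from the RefSeq promoter windows of build GRCm38.p6, and capitals mark the matches. The stretches for Per1 (chr11:69098699-69098948, plus strand), Cry1 (chr10:85185055-85185304, minus strand), Nr1d1 (chr11:98775378-98775627, minus strand) and Per3 (chr4:151044666-151044915, minus strand) are the 250 bases before the transcription start, and the one for Arntl (chr7:113207528-113207557, plus strand) is 30 bases just after it.
Per1: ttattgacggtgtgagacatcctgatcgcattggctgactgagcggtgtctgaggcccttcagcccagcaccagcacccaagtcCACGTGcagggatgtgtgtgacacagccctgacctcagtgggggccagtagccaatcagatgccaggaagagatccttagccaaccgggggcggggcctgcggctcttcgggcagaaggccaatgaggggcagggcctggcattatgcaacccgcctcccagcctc
Cry1: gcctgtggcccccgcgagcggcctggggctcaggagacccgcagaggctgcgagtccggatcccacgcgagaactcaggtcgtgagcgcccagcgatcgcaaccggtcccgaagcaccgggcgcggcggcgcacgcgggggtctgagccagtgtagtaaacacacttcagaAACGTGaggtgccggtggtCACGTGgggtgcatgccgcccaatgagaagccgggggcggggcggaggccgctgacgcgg
Nr1d1: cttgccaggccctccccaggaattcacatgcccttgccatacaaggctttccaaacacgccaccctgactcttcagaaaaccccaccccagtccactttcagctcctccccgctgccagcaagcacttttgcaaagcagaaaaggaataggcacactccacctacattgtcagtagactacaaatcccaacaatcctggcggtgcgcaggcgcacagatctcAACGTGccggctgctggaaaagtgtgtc
Per3: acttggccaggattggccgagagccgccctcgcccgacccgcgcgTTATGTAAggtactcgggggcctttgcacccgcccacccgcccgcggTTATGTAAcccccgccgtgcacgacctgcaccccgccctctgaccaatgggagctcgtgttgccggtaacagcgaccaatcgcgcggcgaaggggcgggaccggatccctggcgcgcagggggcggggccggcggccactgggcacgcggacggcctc
Arntl: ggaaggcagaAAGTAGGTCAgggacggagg
Per1 held 1 E-box (CACGTG). Cry1 held 1 E-box and 1 E′-box (CACGTT or, on the other strand, AACGTG), and Nr1d1 held 1 E′-box. Per3 held 2 D-boxes (TTATGTAA, with TTACGTAA also searched), and Arntl held 1 ROR element, the letters AANT, then A or G, then GGTCA. Over both strands, an E-box was found in 7.15% of all 32851 windows of 300 bases, an E′-box in 4.68%, a D-box in 1.06%, a ROR element in 0.435% and a cAMP response element (TGACGTCA) in 1.79%. Windows were found for 9 of the 10 members (13 windows in all), and 5 of the 9 held a match. Of the other clock-related genes listed further on, 45 had a window and 21 of them held a match. These windows are short, and most regulatory sites of these genes can lie outside them.

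Levels are on a log2 scale: each spot's processed signal was divided by the 75th percentile of its array before the log was taken, so that a level of 0 is that percentile. Probes of different genes differ in brightness, so levels are compared between arrays and not between genes. All 22 probes passed the filter on dim signals, and 18 of them were well above background on all 31 arrays. Arrays had 67.4% to 78.9% of spots well above background, and no member probe was saturated on any array.

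The libraries were checked before the members were compared. Colonocyte markers (7 of 7 measured) had a mean level of 3.08 or more on every array outside CRC 7 days and CRC + E171 14 days, where the lowest array was at -3.27 and -0.50, respectively. Hox markers of the distal colon (5 of 5) were at -5.98 in female 2 of CRC + E171 7 days and at -4.77 and -5.73 in both females of CRC + E171 14 days, and at -1.18 or more on the other arrays. Pancreatic acinar transcripts (7 of 8 measured) were above 0 on 5 arrays, at 3.5 and 7.98 in male 2 of CRC and female 2 of CRC + E171 at 2 days, 5.26 and 6.14 in female 1 and male 2 of CRC 7 days and 8.08 in female 2 of CRC + E171 21 days. The part of these transcripts in the clock genes was not tested, and each array was left out in turn. On the array labelled male 2 of CRC 14 days, Xist was at -1.60, within the range of the females (-2.34 to -0.70) and far from the other males (-8.51 to -6.53), and the Y-linked Uty was at -7.67 against -2.18 to -1.26 in the other males. Comparisons of treatments at 14 days and of sexes are therefore also given without it where a member's call changed, and sexes are given as labelled.

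Most members varied together, in 2 opposed arms with exceptions. Pearson correlations over the 31 arrays were positive for 19 of the 20 pairs within the arms (Arntl, Npas2, Clock, Nfil3 and Cry1 in one, the Per genes, Dbp and Nr1d1 in the other), with a median r of 0.44. They were negative for 22 of the 25 pairs across the arms, with a median r of -0.52. Nfil3 and Per3 had the strongest opposition (r = -0.91), followed by Nfil3 and Dbp (r = -0.89) and Arntl and Dbp (r = -0.88). Per3 and Dbp varied together (r = 0.89), as did Arntl and Npas2 (r = 0.86). All values of an array share its RNA, its slide and its scaling, so these correlations are descriptions over 31 arrays and carry no p.

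The opposition was present among mice of the same group. After each group's mean was removed it was weaker, with 18 of the 25 pairs across the arms negative (median r -0.33, up to 0.50 for Cry1 and Per2) and 16 of the 20 within the arms positive (median 0.31, down to -0.42 for Clock and Nfil3). The strongest pairs held it, as Arntl and Dbp kept an r of -0.77, Nfil3 and Dbp of -0.86, Nfil3 and Per3 of -0.87, Cry1 and Nr1d1 of -0.87, and Dbp and Nr1d1 of 0.80. Within arrays of one labelled sex, the deviations of Cry1 and Nr1d1 correlated at -0.78 in males and -0.86 in females. These deviations were taken from the mean of both sexes, so differences between the sexes were not removed. Clock stood outside the pattern, with an r of 0.07 with the difference between the arms, and Per2 had an r of 0.26 with Cry1 and of 0.02 with Nr1d1.

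**Figure D1:**
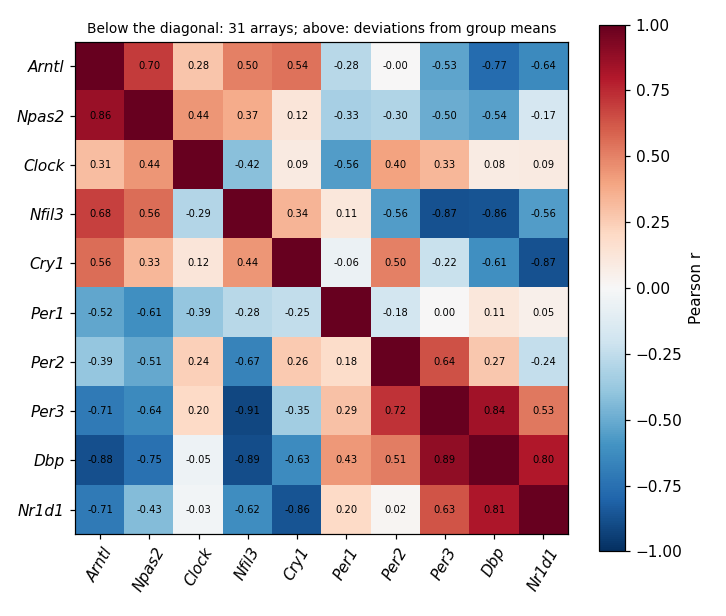
Pearson r between members, over 31 arrays below the diagonal and for deviations from the group means above it. Arntl, Npas2, Nfil3 and Cry1 are negative (blue) against Per3, Dbp and Nr1d1, with r = -0.91 for Nfil3 and Per3.

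A clock difference was computed for each array as the mean of Arntl, Npas2, Clock, Nfil3 and Cry1 minus the mean of Per1, Per2, Per3, Dbp and Nr1d1, each gene centred on its mean over the 31 arrays. A high value is the state with much Arntl and little Dbp. In CRC mice at 2 days it was 1.76 and 2.22 in the females and -1.34 and -0.58 in the males. In CRC + E171 mice at 2 days it was 2.23 and 2.76 in the females and -0.81 and -1.73 in the males. The labelled sexes stood on opposite sides of 0 at 2 days in both treatments.

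At 7 days the CRC mice had -0.28 and -0.01 in the females and 1.41 and 2.66 in the males, and the CRC + E171 mice had 1.4 and 0.10 in the females and 0.79 and 1.45 in the males. At 14 days the CRC females had 1.34 and 1.47 and the males 1.28 and -1.52, the last being the array with a female Xist level. The CRC + E171 females at 14 days had -1.29 and 0.35 and the males 1.24 and 1.53. At 21 days all 7 arrays lay together at the low end, with -2.07, -2.41 and -2.36 in CRC and -2.87, -2.62, -2.06 and -2.02 in CRC + E171.

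**Figure D2:**
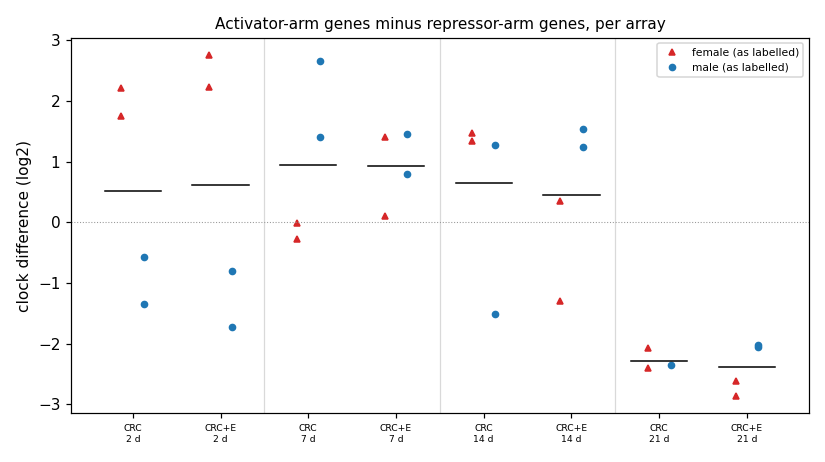
Clock difference (log2) of each of the 31 arrays by treatment and day, with males as circles, females as triangles and group means as lines. The 7 arrays of 21 days lie between -2.87 and -2.02, and at 2 days females (1.76 to 2.76) and males (-1.73 to -0.58) lie apart.

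Between treatments, the clock difference had no stable direction at any day. Its mean in CRC + E171 minus CRC was 0.10, -0.01, -0.18 and -0.11 on the 4 days in order, where the standard deviation (SD) within a group, which holds the spread between sexes, was 1.33. Leaving out each array in turn gave -0.62 to 0.88 at 2 days, -0.42 to 0.56 at 7 days, -0.90 to 0.40 at 14 days (-0.90 without male 2 of CRC 14 days) and -0.24 to 0.05 at 21 days. With array weights it was -0.40, 1.01, -0.84 and 0.05. Between 21 and 2 days it was lower by 2.80 in CRC (-2.28 ± 0.18, SD, n = 3, against 0.52 ± 1.74, SD, n = 4). In CRC + E171 it was lower by 3.0 (-2.39 ± 0.42 against 0.61 ± 2.21, SD, n = 4 each).

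The activator genes come first. Arntl, which encodes BMAL1, was at -0.89 and -0.69 in the females and -2.0 and -1.83 in the males of CRC at 2 days, and at -0.16 and -0.58 against -1.43 and -2.65 in CRC + E171. At 7 days it was -1.62 and -1.25 in females and -1.60 and -1.43 in males of CRC, and -0.78 and -2.01 in females and -0.74 and -0.52 in males of CRC + E171. At 14 days it was -1.01 and -0.98 in females and -0.87 and -2.85 in males of CRC, and -2.99 and -2.08 in females and -0.25 and -1.38 in males of CRC + E171. At 21 days it was -4.05, -3.03 and -3.73 in CRC and -3.72, -3.51, -3.20 and -3.08 in CRC + E171. Every array of 21 days was lower in Arntl than every array of the other days. Arntl was lower at 21 than at 2 days by 2.25 ± 0.57 (SE) in CRC and by 2.17 ± 0.53 in CRC + E171, and its 3 probes gave -2.16 to -2.32 in CRC.

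Npas2 encodes the relative of CLOCK that also pairs with BMAL1. Its 21-day arrays ranged from -5.98 to -4.96, below the range of the other 24 arrays (-4.89 to -3.33). It was lower at 21 than at 2 days by 1.06 ± 0.32 (SE) in CRC and by 1.59 ± 0.30 in CRC + E171. Npas2 is dim here, and after normexp background correction these differences shrank to -0.59 and -0.80, with the direction kept.

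Clock, the partner of BMAL1, varied little, from -2.03 to -0.79 over all 31 arrays. The CRC males at 7 days were at -1.88 and -2.03 against -1.19 and -1.16 in the females, and a CRC + E171 female of 21 days was at -1.89. At 21 against 2 days it was lower by 0.19 ± 0.26 (SE) in CRC and by 0.33 ± 0.24 in CRC + E171.

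Nfil3, a repressor at D-boxes that also has roles in innate lymphoid cells, ranged more widely. At 2 days it was -0.02 and 0.19 in females and -2.28 and -1.41 in males of CRC, and 0.06 and 0.38 against -1.62 and -2.72 in CRC + E171. At 7 days the CRC males were at 2.97 and 2.59 and the females at -1.4 and -1.5. The CRC + E171 mice of 7 days lay between, at -0.69 and -0.08 in females and -0.23 and 0.25 in males. At 14 days it was -0.05 and -0.22 in females and 0.18 and -2.70 in males of CRC, and -1.77 and 0.07 in females and -0.69 and 0.64 in males of CRC + E171. At 21 days it was -1.88, -2.54 and -2.48 in CRC and -3.16, -2.52, -2.68 and -2.72 in CRC + E171.

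The Nfil3 values of the CRC males at 7 days moved with neutrophil transcripts. The neutrophil markers (5 of 6 measured) had a mean of 4.43 and 4.03 in those 2 mice and of -2.17 and -1.61 in the females of the group, and their range over all other groups was -3.05 to 3.55. S100a8, a calprotectin subunit of neutrophils, was at 6.84 and 5.52 in these males and at -5.20 and -3.49 in the females. In the same 2 males Per3 was at -3.20 and -4.70 and Per2 at -2.50 and -2.94, against -0.92, -0.95, -0.30 and -0.26 in the females. The part of the neutrophil signal in these values was not tested, and in bulk tissue more cells of a type and more RNA per cell cannot be told apart.

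Cry1, a repressor of CLOCK and BMAL1, was at -2.91 and -2.66 in females and -5.31 and -4.72 in males of CRC at 2 days, and at -3.06 and -2.48 against -4.46 and -4.49 in CRC + E171. At 7 days it was -3.23 and -3.30 in females and -4.00 and -4.26 in males of CRC, and -2.84 and -3.51 against -4.56 and -4.54 in CRC + E171. The sexes did not overlap at either day. At 21 days it ranged from -4.78 to -3.99 in the 7 mice.

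The other arm moved mostly the opposite way in Dbp, Nr1d1 and Per3, and less so in Per1 and Per2. Dbp, the D-box activator, whose transcript is strongly rhythmic in many tissues, was at 1.07 and 0.23 in females and 4.55 and 3.66 in males of CRC at 2 days, and at 0.74 and -0.12 against 4.09 and 4.54 in CRC + E171. At 7 days it was 3.41 and 3.02 in females and 0.92 and -0.30 in males of CRC, and 1.46 and 2.76 in females and 1.56 and 1.31 in males of CRC + E171. At 14 days it was 1.08 and 1.28 in females and 1.32 and 4.68 in males of CRC, and 4.68 and 2.59 in females and 1.67 and 1.34 in males of CRC + E171. At 21 days it was 4.97, 5.41 and 5.42 in CRC and 5.44, 6.12, 5.30 and 5.15 in CRC + E171. All 7 mice of 21 days were above the other 24, whose highest was 4.68. Dbp was higher at 21 than at 2 days by 2.89 ± 1.14 (SE) in CRC and by 3.19 ± 1.06 in CRC + E171. The SD within a group was 0.25 and 0.42 at 21 days and 0.67 to 2.35 at the earlier days.

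Nr1d1, the heme-binding receptor that represses Arntl, had the widest range of the 10, from -5.20 to 1.56. At 2 days it was -4.27 and -4.83 in females and 1.11 and 0.76 in males of CRC, and -5.08 and -5.20 against 0.34 and 1.07 in CRC + E171. At 7 days it was -1.65 and -2.23 in females and -0.50 and -3.92 in males of CRC, and -3.61 and -1.62 in females and 1.28 and -0.13 in males of CRC + E171. At 14 days it was -4.14 and -3.28 in females and -2.0 and 0.85 in males of CRC, and 0.37 and -1.77 in females and -1.36 and -2.16 in males of CRC + E171. At 21 days it was 1.56, 1.48 and 0.82 in CRC and 0.95, 1.04, 0.01 and -0.28 in CRC + E171. The males of 2 days were at the level of the 21-day mice, and the 4 females of 2 days had the lowest values of all 31 arrays.

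Per3 followed Dbp. It was at -2.18 and -2.64 in females and -0.96 and -1.59 in males of CRC at 2 days, at -2.07 and -3.25 against -0.82 and -0.26 in CRC + E171, and between -0.49 and 0.32 in the 7 mice of 21 days. Its difference of 21 and 2 days was 1.51 ± 0.73 (SE) in CRC and 1.36 ± 0.68 in CRC + E171, and its 3 probes gave 1.48 to 1.55 in CRC.

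Per2, a core repressor of the loop, was narrower. It ranged from -1.92 to -0.76 at 2 days, from -1.75 to -0.89 at 14 days and from -0.98 to -0.12 at 21 days. At 7 days the males were at -2.50 and -2.94 in CRC and -2.41 and -2.74 in CRC + E171, and the females at -0.30 and -0.26 in CRC and -0.68 and -1.48 in CRC + E171. The sexes did not overlap at 7 days in either treatment. That difference was not read for each probe. The 2 probes of Per2, both well above background on all 31 arrays, disagreed in other comparisons. They gave 0.57 and -0.35 for CRC + E171 minus CRC at 14 days, -0.37 and 0.76 at 21 days, and 0.18 and 1.4 for 21 minus 2 days in CRC + E171. For male minus female at 2 days they gave 0.02 and -0.50.

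Per1, which glucocorticoids induce as well as the clock, had probes that disagreed between days. Its bright probe was well above background on all 31 arrays and was higher at 21 than at 2 days by 1.47 in CRC and 1.72 in CRC + E171. Its other probe, designed on a cDNA clone, was well above background on 20 arrays and was lower by 0.35 and 0.75. The mean of both, 0.56 ± 0.27 (SE) in CRC and 0.49 ± 0.25 in CRC + E171, therefore understates the bright probe. At 14 days the mean of both did not overlap between treatments (-3.10 to -2.46 in CRC + E171, -2.42 to -2.0 in CRC), as was so for 5.92% of all genes, but the bright probe alone differed by -0.06 and the dim one by -1.08.

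**Figure D3:**
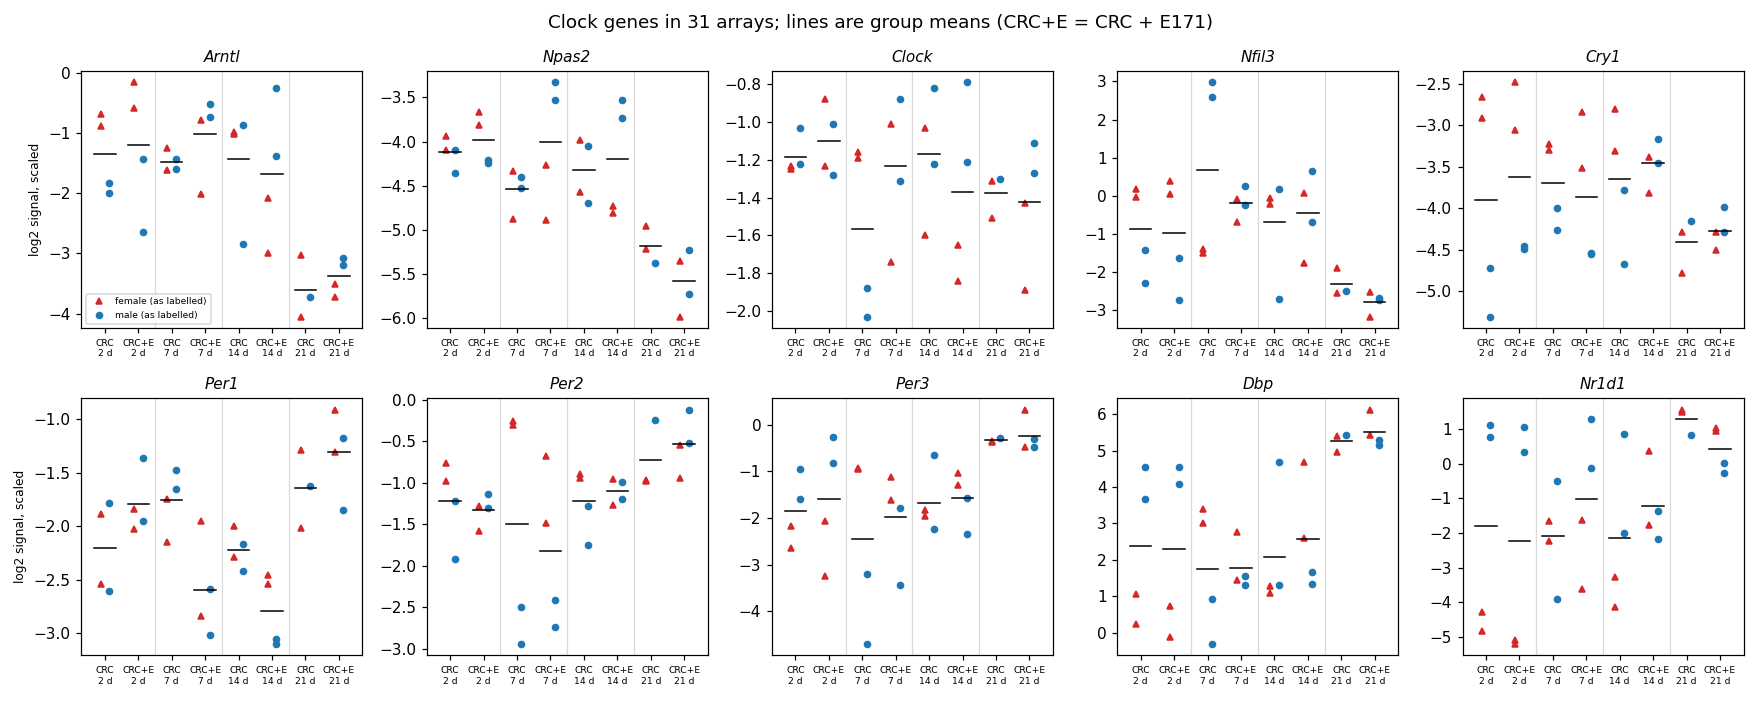
Scaled log2 signal of each member in the 31 arrays by treatment and day, with males as circles, females as triangles and group means as lines. Arntl and Npas2 are lowest and Dbp highest in the 7 arrays of 21 days, and the labelled sexes part at 2 days in Arntl, Nfil3, Cry1, Per3, Dbp and Nr1d1.

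Between CRC + E171 and CRC, none of the 10 members differed by 1.5-fold at 2 days, where 11.3% of all genes did. At 7 days 3 members did (Nr1d1 higher by 1.06 ± 1.44, SE; Nfil3 and Per1 lower by 0.86 ± 0.87 and 0.84 ± 0.25), beside 24.3% of all genes. With array weights, which give less weight to arrays that stand apart, 2 members were past 1.5-fold at 2 days (Per3 0.64 and Dbp 0.63, beside 11.5% of all genes), 7 at 7 days (beside 11.1%), 3 at 14 days (Dbp 1.27, Nr1d1 1.47 and Arntl -0.67, beside 23.5%) and 1 at 21 days (Nr1d1, beside 15.0%). At 7 days Nfil3 turned to 0.76 and Per3 from 0.45 to -0.75, Dbp went from 0.01 to -1.31 and Per2 from -0.33 to -1.18. At 14 days Nr1d1 alone did (0.91 ± 1.44), beside 19.0%. Without male 2 of CRC 14 days, 4 did, beside 20.9%, with differences of 1.91 for Nr1d1, 1.34 for Dbp, -0.72 for Arntl and -0.64 for Per1, and Nfil3 turned from 0.26 to -0.41 and Cry1 from 0.19 to -0.15. At 21 days it was again Nr1d1 alone (-0.86 ± 1.55), beside 14.3%. Leaving out 1 array, Nr1d1 ranged from 0.29 to 1.92 at 7 days, 0.25 to 1.91 at 14 days and -1.09 to -0.62 at 21 days. At 7 days Nfil3 ranged from -1.58 to -0.09 and Per1 from -1.06 to -0.71. For Arntl the difference was 0.14, 0.46, -0.25 and 0.22 at the 4 days, with an SE of 0.53 to 0.57. For Dbp it was -0.07, 0.01, 0.48 and 0.24, with an SE of 1.06 to 1.14. Apart from Per1, the difference was at most 1.77 times its SE (Npas2 at 7 days). These SEs include the spread between sexes. With sex and day held in the model, a choice made after the data were seen, Npas2 at 7 days was 0.53 ± 0.20 (2.59 times its SE), Nfil3 -0.86 ± 0.51, Nr1d1 1.06 ± 0.70 and Per1 -0.84 ± 0.25.

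Slides, the glass units that carry several arrays, never held both groups of a day, so the effect of E171 at 1 day cannot be told apart from slide. Each slide held CRC of one day and CRC + E171 of a partner day, and the mean effect over each pair of partner days was therefore also read within slides. Over 2 and 14 days it was -0.05 ± 0.58 (SE) for Arntl and 0.21 ± 1.04 for Dbp, and over 7 and 21 days 0.13 ± 0.60 and 0.42 ± 1.09. These SEs also hold the differences between partner days, which the fit does not take out. Over 7 and 21 days, where a CRC array of 21 days was missing, those differences did not cancel in the mean. From group means with no slide term, the mean effect was 0.34 ± 0.39 for Arntl, 0.12 ± 0.78 for Dbp and -0.66 ± 0.64 for Nfil3. No member's effect was past 1.5-fold within slides apart from Nfil3 over 7 and 21 days (-0.93 ± 0.86), where 7.47% of all genes were past it over 2 and 14 days and 14.6% over 7 and 21 days. Per the file headers all CRC arrays lay at slide positions ending in 2 and all CRC + E171 arrays at positions ending in 4, so within slides treatment and array position cannot be told apart.

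Between 21 and 2 days, 6 members differed by 1.5-fold in CRC (Per3, Dbp and Nr1d1 higher, Arntl, Npas2 and Nfil3 lower), beside 15.7% of all genes. In CRC + E171, 8 did (Per2, past it in 1 of its 2 probes, also higher and Cry1 also lower), beside 20.5%. Leaving out 1 array, Cry1 ranged from -0.94 to -0.27 in CRC + E171, so its place in this count depends on single arrays. The arrays of the compared days did not overlap for 5 members in CRC (Arntl, Npas2, Clock, Per3 and Dbp), as for 10.7% of all genes, and for 4 in CRC + E171 (Arntl, Npas2, Per2 and Dbp), as for 8.14%. All 7 arrays of 21 days lay beyond all 24 others in 5 genes of the whole array, 0.0252% of those tested, and these were Arntl, Npas2 and E2f2 on the low side and Dbp and Ciart on the high side. Since the members were selected on levels by day, these counts describe them and support nothing. No slide held arrays of both 2 and 21 days, DSS was still being given at 2 days, and the hour of sampling is unknown. Differences between these days, here and for the other genes, therefore cannot be told apart from slide, DSS or hour.

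**Figure D4:**
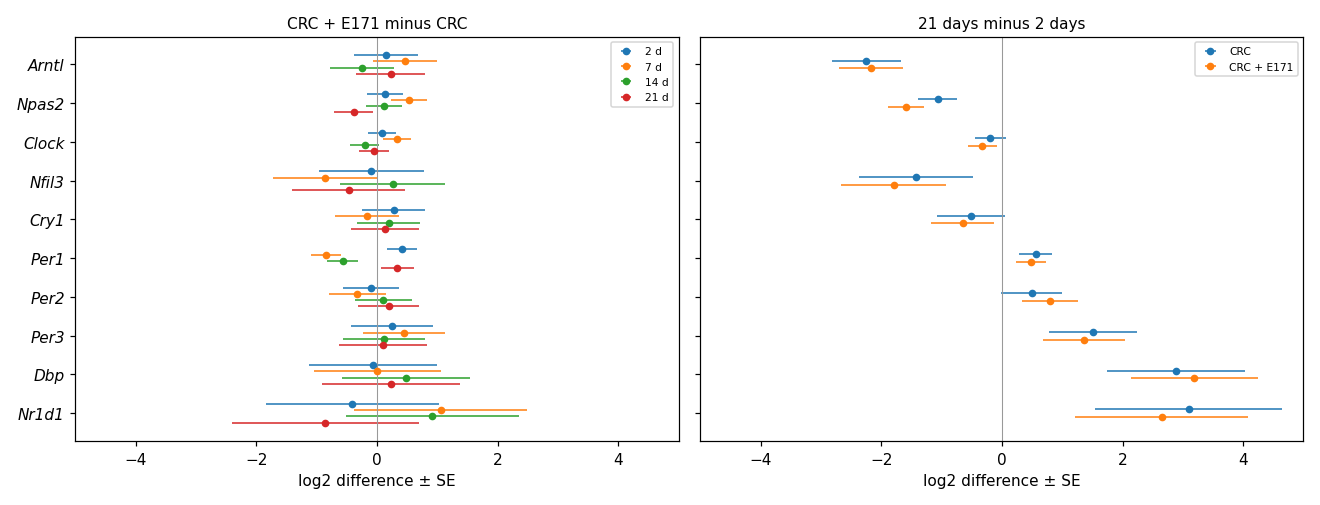
Log2 difference with its SE for each member, CRC + E171 minus CRC at each day on the left and 21 minus 2 days in each treatment on the right. The differences between treatments lie around 0, and those between days reach 3.19 for Dbp and -2.25 for Arntl.

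The sexes were compared first over all days. With group and sex in the model, none of the 10 members passed an adjusted p of 0.05 in limma, where 0.0554% of all genes did (11 genes), and 3 had an unadjusted p under 0.05 (Cry1, Per2 and Nr1d1), led by Cry1 (male minus female -0.85 ± 0.21, SE, adjusted p = 0.17 in limma; -0.79 and 0.25 without male 2 of CRC 14 days). With array weights Cry1 and Nr1d1 passed (limma, adjusted p = 0.039 and 0.045), beside 0.232% of all genes. The per-day comparison that follows was added after the values had been seen, so its p-values describe a pattern noticed in these same arrays.

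At 2 days the labelled sexes differed in 3 of the 10 clock genes by limma. The hour at which each mouse was sampled is not given, so at each day sex cannot be told apart from hour. Averaged over the treatments (4 males, 4 females), Nr1d1 was 5.66 ± 0.70 (SE) higher in males on the log2 scale (limma, adjusted p = 0.0029), Dbp 3.73 ± 0.58 higher (adjusted p = 0.015) and Cry1 1.97 ± 0.23 lower (limma, adjusted p = 0.0021). These 3 of 10 members stood beside 0.353% of all genes (70 of 19845), and Cry1 and Nr1d1 had the smallest p-values of the array. Nfil3 was 2.16 ± 0.51 lower in males (limma, adjusted p = 0.062), Per3 1.63 ± 0.42 higher (adjusted p = 0.080) and Arntl 1.39 ± 0.40 lower (adjusted p = 0.12), and these did not pass. Nfil3 did pass in 5 of 12 processing alternatives (limma, adjusted p 0.030 to 0.077) and in 6 of the 31 fits that left out 1 array (0.027 to 0.46), male 2 of CRC 14 days among them (0.027), and Per3 passed in 1 of the 12 (0.036). That one was array weights, with which 5 members passed (Cry1, Nr1d1, Dbp, Nfil3 and Per3), beside 2.80% of all genes. Per1, Per2, Clock and Npas2 differed by 0.35 or less, and Per2 went from -0.70 in CRC to 0.22 in CRC + E171. Males and females did not overlap in 7 members (Arntl, Npas2, Nfil3, Cry1, Per3, Dbp and Nr1d1), as in 14.2% of all genes.

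The sexes shared slides, so these differences were also read within each slide. Male minus female for Nr1d1 was between 5.38 and 6.27 on the 4 slides of 2 days, for Dbp between 3.35 and 4.66, for Cry1 between -2.39 and -1.41, for Nfil3 between -3.11 and -1.60, for Per3 between 1.05 and 2.99 and for Arntl between -2.08 and -1.11. Since the sexes did not overlap in these 6 genes, the direction on each slide was fixed, and the slides add only the sizes. Leaving out any 1 array kept Cry1 and Nr1d1 past the threshold (highest adjusted p 0.030 and 0.037), while Dbp was lost without any 1 of 5 arrays of 2 days (CRC male 1, female 1 and female 2, and CRC + E171 male 2 and female 2; adjusted p 0.054 to 0.17), its difference staying at 3.51 or more. Taken per treatment in limma, Cry1 passed in CRC (adjusted p = 0.042), beside 0.00504% of all genes (1 gene), and no member passed in CRC + E171, beside 0.00% (Nr1d1 and Cry1, adjusted p = 0.10 each; 6 members and 1261 genes of the array had an unadjusted p under 0.05).

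Other transcripts moved with the sexes at 2 days. Proliferation markers (6 of 6 measured) had a mean of -0.72 to 0.78 in males and 0.98 to 1.24 in females, and macrophage markers (6 of 6) of 0.02 to 0.69 and 0.70 to 1.02. T cell markers (6 of 6) overlapped (-2.69 to 0.26 and -0.13 to 1.20), as did neutrophil (-1.63 to -0.84 and -1.73 to -0.57) and colonocyte markers (3.53 to 4.25 and 3.36 to 3.91). Enteric neuron and glia markers (6 of 6) were at -3.18 to -2.99 in males and -3.90 to -3.19 in females. The part of these transcripts in the clock gene differences was not tested.

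**Figure D5:**
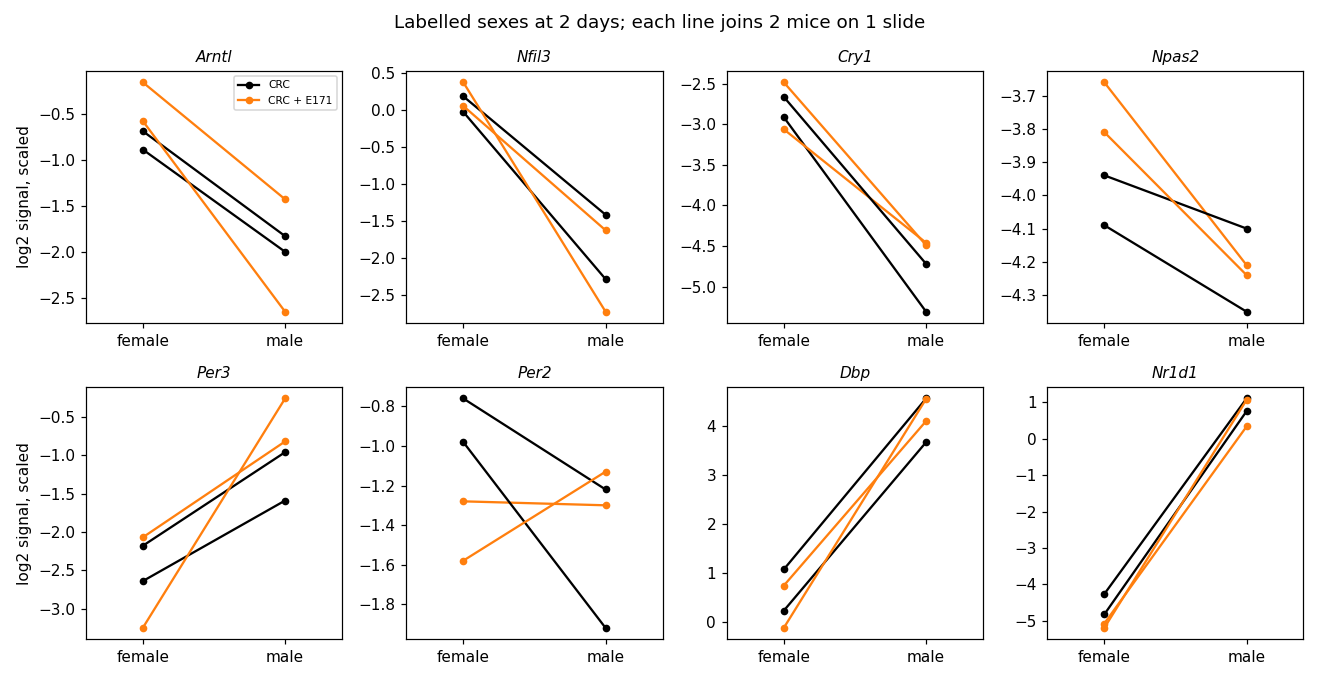
Scaled log2 signal of 8 members in the 8 mice of 2 days, females on the left and males on the right of each panel, with a line joining the male and the female of 1 slide. Nr1d1, Dbp and Per3 are higher and Cry1, Nfil3, Arntl and Npas2 lower in males on all 4 slides.

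At 7 days the pattern was another one. Per2 was 1.97 ± 0.20 (SE) lower in males (limma, adjusted p = 0.00012), Cry1 1.12 ± 0.23 lower (adjusted p = 0.012), Per3 2.13 ± 0.42 lower (adjusted p = 0.010) and Nfil3 2.31 ± 0.51 higher (limma, adjusted p = 0.016). These were 4 of 10 members, beside 4.79% of all genes (950 genes), and the count was 2 without CRC female 1 and 1 without CRC + E171 male 2 of 7 days. With array weights Per2 alone passed (-2.08 ± 0.27, limma, adjusted p = 0.0030), beside 1.12% of all genes, and Per3, Cry1 and Nfil3 did not (adjusted p = 0.092, 0.098 and 0.16). Nfil3 differed by 4.23 ± 0.72 between the sexes in CRC and by 0.39 ± 0.72 in CRC + E171, and the difference between the treatments in this was not tested. Per3 differed by -3.02 ± 0.59 in CRC and -1.24 ± 0.59 in CRC + E171. Per2 differed by -2.44 ± 0.28 in CRC and -1.49 ± 0.28 in CRC + E171, and Cry1 by -0.86 ± 0.32 and -1.37 ± 0.32. Taken per treatment in limma, Per2, Per3, Nfil3 and Dbp passed in CRC, beside 15.6% of all genes, and no member passed in CRC + E171, beside 0.00% (4 members had an unadjusted p under 0.05). Cry1 passed in neither (adjusted p = 0.078 and 0.62). At 14 and 21 days no member passed (limma, smallest adjusted p 0.95 and 0.63; without male 2 of CRC 14 days none passed either), and 2 and 1 had an unadjusted p under 0.05. Without that array Dbp, 1.79 lower in males, passed at 7 days as well (limma, adjusted p = 0.026).

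Tissue markers also moved with the CRC males of 7 days, and not with the CRC + E171 males. Colonocyte markers were at -3.27 and -1.06 in the CRC males, 3.69 and 4.16 in the CRC + E171 males and 3.42 or more in the females. Goblet cell markers (6 of 6) reached down to -1.61 in the CRC males and were at 5.48 or more in the females and in CRC + E171. Pan-epithelial markers (7 of 7) reached down to 1.61 in the CRC males and were at 5.00 or more in the females and in CRC + E171. Squamous epithelium markers (6 of 8) were at 4.65 in CRC male 1, -2.30 in CRC male 2 and up to -0.87 in females. Skeletal muscle markers (6 of 6) were at 3.71 in CRC male 1, -3.79 in CRC male 2 and up to -1.13 in females. Their part in the sex differences of 7 days was not tested.

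The difference of the sex effect among the 4 days was tested itself. It passed for Per2 (limma F test, adjusted p = 0.0058), Cry1 and Dbp (adjusted p = 0.029 each) and Nr1d1 (adjusted p = 0.043), 4 of 10 members beside 0.141% of all genes (28 genes). Without male 2 of CRC 14 days it passed for 6 members (limma F test, adjusted p = 0.0019 for Dbp, 0.0044 for Per2, 0.0066 for Nfil3, 0.0085 for Cry1, 0.018 for Nr1d1 and 0.028 for Per3), beside 41 of all genes. For Dbp the male minus female difference was 3.73, -1.79, -0.15 and -0.16 on the 4 days in order. For Nr1d1 it was 5.66, 1.46, 1.04 and -0.91. Without that array the values at 14 days were -0.99 for Dbp and 0.33 for Nr1d1.

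Other genes of the clock were followed in lists chosen by known role, 56 genes in all. They were 12 other genes of the loop (such as Nr1d2, Ciart, Tef and Rorb), 20 modifiers such as the casein kinases, 18 outputs and 7 glucocorticoid-induced genes besides Per1, with Tsc22d3 (GILZ) in both of the last lists. In limma none of the 56 passed an adjusted p of 0.05 between CRC + E171 and CRC at any day (1, 11, 1 and 2 had an unadjusted p under 0.05 on the 4 days in order), nor between days in either treatment (1 to 19 had one). Of all genes 0.00% passed in 10 of these 12 comparisons, and 0.0101% and 0.0605% passed between 21 and 14 days in CRC and in CRC + E171. With array weights, 1 of the 56 passed between 21 and 2 days in CRC and 6 in CRC + E171. The share of all genes with weights is not at hand for these. Of the 12 loop genes, 9 were higher at 21 than at 2 days in CRC and 8 in CRC + E171, and their median log2 difference was 0.88 and 0.35, where the median of all genes was -0.02 and -0.08. All 7 glucocorticoid-induced genes were higher at 21 than at 2 days in both treatments, with medians of 0.83 and 0.87. The 20 modifiers had medians of -0.06 and -0.09 and the 18 outputs of 0.47 and 0.40.

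Ciart, a repressor of CLOCK and BMAL1 also called CHRONO, was higher at 21 than at 2 days by 3.14 ± 0.79 (SE) in CRC (unadjusted p = 0.00049 and adjusted p = 0.71 in limma) and by 2.77 ± 0.73 in CRC + E171 (adjusted p = 0.12). Zbtb16, a zinc finger gene induced by glucocorticoids, was higher by 1.38 ± 0.42 and 1.32 ± 0.39 (adjusted p = 0.81 and 0.15). Klf9, another glucocorticoid-induced factor, was higher by 0.83 ± 0.27 in CRC. Bhlhe41 (DEC2), a repressor at E-boxes, was higher by 1.27 ± 0.40 in CRC and differed by -0.02 ± 0.37 in CRC + E171, and the difference between these was not tested on its own. Usp2, a deubiquitinase driven by the clock, was higher by 1.78 ± 0.54 in CRC + E171, where Leo1 was lower by 1.56 ± 0.40 (adjusted p = 0.12).

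Between treatments, the loop list had medians of 0.28, -0.03, 0.17 and -0.04 at 2, 7, 14 and 21 days, against 0.06, -0.01, 0.01 and 0.02 for all genes. At 7 days all 7 glucocorticoid-induced genes were lower in CRC + E171 (median -0.43, 3 past 1.5-fold, as were 24.3% of all genes), as were 12 of the 18 outputs (median -0.21), none with an adjusted p under 0.05 in limma over the 8 groups. The CRC group of 7 days held the 2 males with the neutrophil means of 4.43 and 4.03 and colonocyte marker means of -3.27 and -1.06, and their part in the treatment differences of the list genes at 7 days was not tested. At 7 days, Tspan4 was lower in CRC + E171 by 1.84 ± 0.38 (SE), Csnk1e, a kinase that marks PER proteins for degradation, by 0.71 ± 0.22, and Dtx4 by 0.61 ± 0.20, while Ep300, an acetyltransferase, was higher by 0.75 ± 0.27, all with an adjusted p of 0.20 or 0.21 in limma. In the males of 7 days Tspan4 spread from 0.74 to 4.22 and in the females from 1.87 to 2.78. With sex and day held in the model, a choice made after the data were seen, Tspan4 (limma, adjusted p = 0.014), Dusp1 (-1.04 ± 0.25, adjusted p = 0.029) and Csnk1e (adjusted p = 0.040) passed at 7 days, 3 of 56 list genes beside 4.42% of all genes. At 2 days Fbxl21, which acts on CRY proteins, was higher by 0.63 ± 0.27, and at 21 days Leo1 lower by 1.14 ± 0.43, both far from passing (adjusted p = 0.999 and 0.86). No list gene differed by 1.5-fold with an unadjusted p under 0.05 at 14 days.

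The sex difference of 2 days was shared by genes outside the 10. Nr1d2 (REV-ERB beta), the close relative of Nr1d1, was 2.24 ± 0.41 (SE) higher in males (limma, adjusted p = 0.029), and ranged from 0.61 to 1.5 in males and from -1.85 to -0.66 in females. Lonrf3 was 1.54 ± 0.28 lower in males (adjusted p = 0.027). Neither passed without any 1 of 6 arrays of 2 days (CRC male 1, female 1 and female 2, and CRC + E171 female 1, male 2 and female 2). At 7 days 7 of the 56 list genes passed (1 with array weights), beside 4.79% of all genes, among them Wee1, a cell cycle kinase under clock control (-2.0 ± 0.32, limma, adjusted p = 0.0045), Tef (-1.87 ± 0.38, adjusted p = 0.011), Cry2 (-1.22 ± 0.28, adjusted p = 0.018) and Sgk1 (-1.44 ± 0.33, adjusted p = 0.019), each lower in males. The 7 became 2 or 3 without CRC female 1 or female 2 of 7 days and 2 or 4 without CRC + E171 male 2 or female 2 of 7 days.

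Over all days, Rorb, a ROR receptor of the loop, was the list gene with a sex difference, at 1.29 ± 0.21 (SE) higher in males (limma, adjusted p = 0.0054; 1.23 and adjusted p = 0.014 without male 2 of CRC 14 days). It ranged from -8.38 to -5.60 in 16 females and from -6.83 to -5.35 in the 14 other males. Its signal was dim, well above background in 7 of those 14 males and 5 of the 16 females, so its level is near the limit of these arrays. Its median at 2, 7, 14 and 21 days was -7.63, -7.58, -7.96 and -6.12 in females. In males as labelled it was -6.09, -5.97, -5.93 and -5.77, so the sexes lay closest at 21 days.

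The genes whose levels followed the clock difference most closely over the 31 arrays were then named, members left out and with no test. On the side of Dbp were Nr1d2 (r = -0.95), Ciart (-0.93), Lefty1 (-0.91), Tef (-0.91), Zfyve21 (-0.88), Lrrc8e (-0.86), Tns4 (-0.85) and Cbr4 (-0.85). Nr1d2, Ciart and Tef, a PAR bZIP factor like Dbp, belong to the clock loop. The closest 8 on the side of Arntl included Rnf125 (r = 0.90), E2f2 (0.86), Clic4 (0.86), Pim1, Adam17 and Mmp25 (0.83 each). Of the marker lists, macrophages had an r of 0.65 with the clock difference, T cells of 0.58, proliferation of 0.52, neutrophils of 0.47, B cells of 0.45 and colonocytes of -0.41. On deviations from the group means, 6 of the 8 genes on the side of Dbp and 1 of the 8 on the side of Arntl were again among the closest 8.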

How the data were processed

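Total RNA of distal colon was labelled with Cy3 and hybridised to 31 one-colour Agilent mouse arrays, read by the authors with Feature Extraction 10.7.3.1 (array design annotation build mm9). The deposited intensity of each spot is the scanner's processed signal, background-subtracted per the file headers, and the authors' deposited log2 table of the same arrays was used as an alternative only. Of its columns, 31 of 31 ranked most like their own array (lowest Spearman correlation 0.994), and its centring is not given in the sources used here (column medians from 9.43 to 9.67). The deposited flags (unit other) mark control spots, outliers and spots well above background.

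Here log2 signal minus each array's 75th percentile was used, outlier spots were left out, and a probe was kept when well above background on at least 60% of the arrays of a group with a mean log2 signal of at least 4 (42787 of 56605 probes). Probes were named through RefSeq (33903 by accession, 9458 by symbol, 488 by synonym) and averaged to 19845 genes. The members' probes were not chosen by value. The members and the gene lists were chosen with earlier results of these data known. Differences were fitted with limma 3.58.1 in R 4.3.3 over 8 groups, with Benjamini-Hochberg adjustment over all genes and calls at an adjusted p of 0.05, as the study used LIMMA against time-matched controls. Sex was tested with group in the model and, after the values had been seen, per day over 16 cells of treatment, day and sex. Named outside the members were list genes that passed (up to 6 per comparison by smallest p, else up to 4 past 1.5-fold with unadjusted p under 0.05) and the 8 highest and 8 lowest correlations with the clock difference. Scripts were tested on simulated data. Alternatives were another normalization, background, filter, probe, covariate, block, weighting and each array left out. Nothing in the labels says that the mice of a group were housed or processed apart, so p-values measure the spread between these mice and arrays. The number of arrays limits the precision. The same-labelled mice of the treatments are not known to be paired and share a labelled sex and a number. Mice of the first number lay on other slides than mice of the second, and the arrays were scanned on 3 days. The deviations of same-labelled mice correlated from -0.18 to 0.48 (8 of 15 over 0.1). Some genes that met the rule for named genes are not reported here.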

Additional observations from a re-analysis of the deposited data

Results flagged for a closer look

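In groups of 4 mice, 6 of 77 combinations of a group with a member or the clock difference had 1 array far from the other 3, where chance gives about 1 in 20. Of these, 4 were the array labelled male 2 of CRC 14 days, whose Xist level goes against its label. Its Arntl was -2.85 (the others -1.01 to -0.87), its Nfil3 -2.70 (-0.22 to 0.18), its Dbp 4.68 (1.08 to 1.32) and its clock difference -1.52 (1.28 to 1.47). The other 2 were Clock in male 2 of CRC 2 days (-1.03, the others -1.25 to -1.22) and Dbp in female 2 of CRC + E171 7 days (2.76, the others 1.31 to 1.56). The part of the label mismatch in these values was not tested.

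The male minus female difference changed with the day for 4 members, by a test of that change over the 4 days chosen after the values had been seen (limma F test). The adjusted p was 0.0058 for Per2, 0.029 for Cry1, 0.029 for Dbp and 0.043 for Nr1d1, and without male 2 of CRC 14 days 6 members passed. Per2 differed between sexes at 7 days, Nr1d1 and Dbp at 2 days, and Cry1 at both.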

How the results depend on the processing

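The clock difference between treatments and between 21 and 2 days moved by less than 1 within-group SD (1.33) under every alternative run, each array left out included, but the sign between treatments changed with the array left out at each of the 4 days. With a replicate block of sex and number, 3 members passed at 2 days and 4 at 7 days, the same counts as without it, 0 of the 56 other clock genes passed between treatments or between 21 and 2 days, and it changed no other call. The pairing is only one of labelled sex and number, and the number goes with the slides. Array weights moved the counts most: 1 other clock gene passed between 21 and 2 days in CRC and 6 in CRC + E171 (0 without weights). The share of all genes that passed between these days with weights is not at hand, so these counts cannot be judged. Between sexes, 5 members and 8 other genes passed at 2 days, 1 member and 1 other gene at 7 days, and 2 members over all days, beside 2.80%, 1.12% and 0.232% of all genes. With sex and day held, 3 other clock genes passed between treatments at 7 days. The cause was not tested. Leaving out 1 array, the other clock genes that passed ranged from 0 to 3 between treatments at 7 days, 0 to 1 between 21 and 2 days in CRC + E171, 0 to 5 between sexes at 2 days, 2 to 8 at 7 days and 0 to 2 at 14 days, and the members from 2 to 4 at 2 days and 1 to 5 at 7 days. Clock, near 0 between sexes at 2 days, turned to -0.015 with normexp, -0.085 with the stricter filter, -0.103 with the brightest probe and -0.043 with array weights, and without 1 array it ranged from -0.073 to 0.10 and Per1 from -0.060 to 0.35. Dim probes limit Npas2, the dim Per1 and Clock probes and Rorb, whose values depend on the background correction or the probe used.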
